A study of Canis lupus familiaris with 9 samples.

Results

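The genes described here belong to the insulin-like growth factor (IGF) and insulin receptor axis: the ligand gene IGF1, the receptor genes IGF1R, IGF2R and INSR, and the adaptor genes IRS1 and IRS2. They were chosen by gene symbol, and 5 of the 6 symbols were found among the 28008 features of each library, each on 1 row. IGF2R was not analysed here. The libraries came from dogs with CD4+ peripheral T cell lymphoma (PTCL), a cancer of mature T cells, and from healthy dogs. The 3 Boxer lymphomas came from 2 castrated males aged 6 years (replicates 1 and 3) and a spayed female aged 8 years (replicate 2). The 3 other-breed lymphomas came from a spayed female Cavalier King Charles Spaniel aged 3 years (replicate 1), a spayed female Rhodesian Ridgeback aged 4 years (replicate 2) and a castrated male Collie aged 11 years (replicate 3). The 3 control libraries came from CD4+ T cells sorted from female hounds aged 1 year that had not been neutered. Lymphoma and control dogs therefore differed in breed, age and neutering as well as in disease, and in part in sex. Sorting is stated for the controls, while neither the tissue nor a sort is given for the lymphomas. That the samples came from separate dogs is assumed and not stated, so p-values describe sample-to-sample spread.

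IGF1 is a secreted growth factor made by liver and, in other tissues, by stromal cells and macrophages. It binds IGF1R, a receptor tyrosine kinase, while insulin acts mainly through the related kinase INSR, and the products of both genes can pair in hybrid receptors. The activated kinases phosphorylate IRS1 and IRS2, docking proteins that recruit the lipid kinase PI3K and thereby AKT and mTOR, while SHC and GRB2 link the receptors to RAS and MAPK. IGF2R, the cation-independent mannose 6-phosphate receptor, has no kinase domain, clears IGF2 and carries newly made lysosomal enzymes. In T cells of mice and humans, insulin and IGF1 receptors are known to take part in growth, survival and glucose use after activation.

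The libraries held 11710623 to 18488468 reads. Values are normalised read counts, the authors' reads divided by 1 factor per library, in which 1 read was worth 0.789 to 1.36 units. On the second principal component, which held 14.2% of the variance, other-breed lymphomas 1 and 2 lay at -120 and -78.2, against 11.3 to 58.8 for the other libraries. The summed T cell markers were 52596 to 95529 across lymphomas, against 78865 to 79179 across controls (8 of 9 listed markers found), and the gene CD4 itself was not analysed here. Whether the lymphomas were sorted is not given, and fewer cells of a type and less RNA per cell cannot be told apart in these libraries. The summed monocyte and macrophage markers (13 found) were 939 to 21354 across lymphomas, against 143 to 209 across controls. Of the 13, 10 were higher in every lymphoma than in every control, which held for 18.5% of the 15977 genes tested below. None of the 13 was at 0 in all controls. The summed fibroblast markers (14 found) were 621 to 20999 across lymphomas, against 2484 to 2853 across controls. In the controls most of that sum was THY1, at 2304 to 2810, and LUM, MMP2 and POSTN were at 0 in all 3. The summed endothelial markers (9 found) were 164 to 7745 across lymphomas, against 461 to 874 across controls. The summed B cell markers (6 found) were 450.3 to 6191 across lymphomas, against 1341 to 1542 across controls. Above every control in every lymphoma were 5 of the 14 fibroblast and 2 of the 9 endothelial markers. The same held for 1 of the 8 T cell and 0 of the 6 B cell markers.

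IGF1 transcripts were present in every lymphoma and nearly absent from the controls, IGF1R was lower in every lymphoma, and INSR and IRS2 varied among the lymphomas on both sides of the control level. IRS1 stayed at 20.2 normalised counts or below in all libraries. Of the 5 genes found, 4 were tested in the comparison of 6 lymphomas with 3 controls. The test was limma on log2(normalised count + 1), with p-values adjusted by the Benjamini-Hochberg method over all 15977 genes with 3 or more libraries at 10 or higher. IGF1 rose, IGF1R fell, and INSR and IRS2 did not pass the adjusted threshold of 0.05. Over all genes tested, 35% passed, 19.4% upward and 15.7% downward, so the count of 2 in 4 is to be read against that background.

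**Figure D1:**
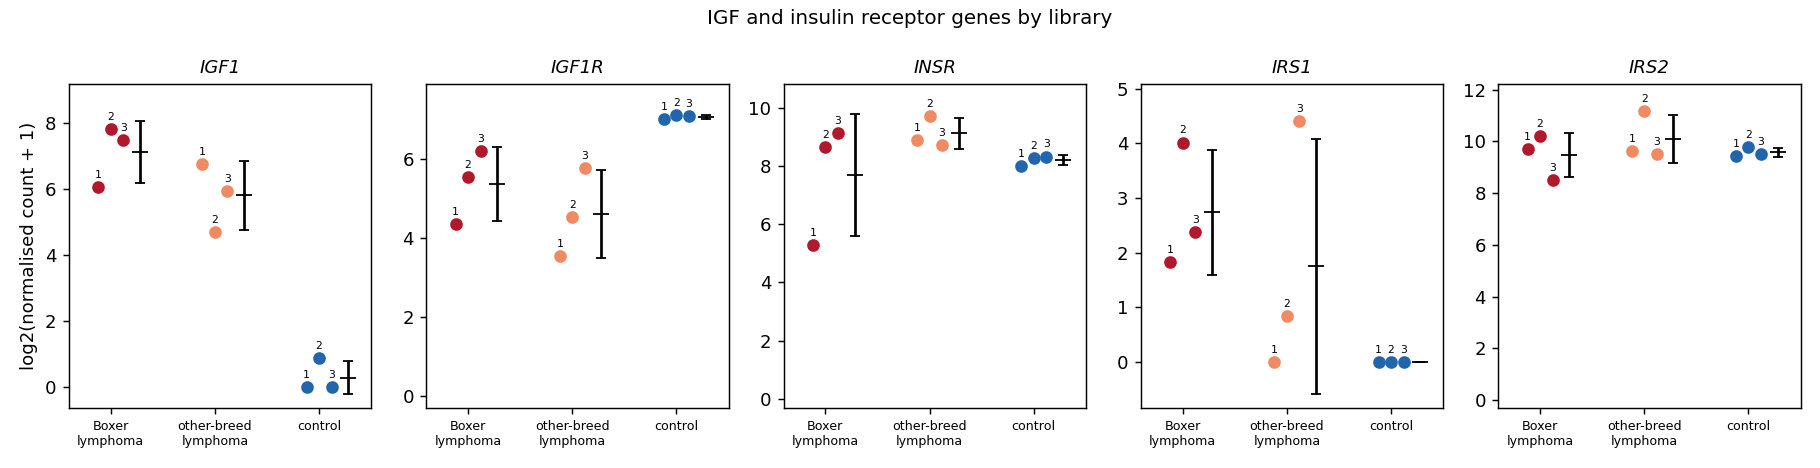
Normalised read counts of IGF1, IGF1R, INSR, IRS1 and IRS2 in each library, on the log2(normalised count + 1) scale. Points are libraries numbered by replicate, and the bars beside them are the mean and SD of the group on that scale (n = 3 each). All 6 lymphomas lie above the controls for IGF1 and below them for IGF1R, and Boxer lymphoma 1 lies far below the other lymphomas for INSR.

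The ligand gene IGF1 (ENSCAFG00000007304) had 66.3, 227 and 177 normalised counts in Boxer lymphomas 1 to 3 and 108, 25.2 and 60.5 in other-breed lymphomas 1 to 3, against 0, 0.826 and 0 in the controls. The control value of 0.826 was a single read, the only one in the 3 control libraries. Every lymphoma was above every control, which also held for 18.5% of all genes tested. The mean was 110.6 ± 77.0 in the lymphomas and 0.275 ± 0.477 in the controls (SD, n = 6 and 3). On the log2(value + 1) scale the difference was 6.18 ± 0.70 (SE, 95% confidence interval 4.63 to 7.73, limma adjusted p = 2.07e-04). Pooled over libraries and scaled by their factors, 668 reads in lymphomas against 1 in controls gave a ratio of 323, with an exact 95% interval of 57.8 to 12779 that covers counting error only. IGF1 passed the filter on low values only through the lymphomas.

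IGF1 also rose in each lymphoma group taken alone. In Boxer lymphomas the difference from controls was 6.84 ± 0.65 (limma adjusted p = 3.81e-04), where 39.3% of 15155 genes passed the test and 21.5% passed upward. All 3 Boxers were above all controls, which held for 28.5% of the genes tested there. In other-breed lymphomas it was 5.52 ± 0.73 (limma adjusted p = 0.00293), where 29.7% of 14631 genes passed and 15.5% passed upward. Both comparisons use the same 3 controls, and in both IGF1 passed the filter on low values only through the lymphomas. Other-breed lymphoma 1 had the lowest macrophage sum of the lymphomas, 939, and an IGF1 value of 108, while other-breed lymphoma 3 had the highest sum, 21354, and an IGF1 value of 60.5. Other-breed lymphoma 2, with the lowest IGF1 value of the lymphomas, also had the lowest fibroblast sum, 621, and the lowest endothelial sum, 164. Other-breed lymphoma 3, however, had the highest endothelial sum, 7745, and a fibroblast sum of 14858. In Boxer lymphomas 1 to 3, with IGF1 values of 66.3, 227 and 177, the macrophage sums were 12931, 6188 and 12171. Their fibroblast sums were 6362, 4130 and 20999, and their endothelial sums 1845, 3296 and 5111. The part of other cell types in the rise of IGF1 was not tested.

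The receptor gene IGF1R (ENSCAFG00000010881) had 19.5, 45.5 and 72.9 normalised counts in Boxer lymphomas and 10.6, 22.1 and 53.1 in other-breed lymphomas, against 128, 137 and 133 in the controls. No lymphoma reached the lowest control, which held for 17.2% of all genes tested. The controls lay within a narrow band, whereas the lymphomas spanned 10.6 to 72.9. The mean was 37.3 ± 23.8 in the lymphomas and 132.9 ± 4.39 in the controls (SD, n = 6 and 3), a difference of -2.08 ± 0.58 on the log2 scale (95% interval -3.36 to -0.79, limma adjusted p = 0.0198). The fall was also called in Boxer lymphomas (-1.70 ± 0.51, limma adjusted p = 0.0318) and in other-breed lymphomas (-2.46 ± 0.59, limma adjusted p = 0.0209), where 17.9% and 14.2% of the genes tested fell. Every library of the group was below every control for 26.3% of the genes in the Boxer comparison and 24.2% in the other-breed comparison. Leaving out any 1 control ended the call in the 6 lymphomas while the difference stayed at -2.05 to -2.10 (limma adjusted p from 0.0653 to 0.0762). In Boxers the call was lost without any 1 control or without Boxer lymphoma 2, that is in 4 of 6 such fits, with limma adjusted p up to 0.106. In other-breed lymphomas it was lost without any 1 control, in 3 of 6 fits, with limma adjusted p up to 0.0858.

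The insulin receptor gene INSR (ENSCAFG00000018170) had 38.2, 401 and 554 normalised counts in Boxer lymphomas and 477, 839.9 and 423 in other-breed lymphomas, against 255, 305 and 319 in the controls. Boxer lymphoma 1 was below every control and the other 5 lymphomas were above every control. The mean was 456 ± 259 in the lymphomas and 293 ± 33.3 in the controls (SD, n = 6 and 3), and the difference of 0.21 ± 0.78 did not pass the test (95% interval -1.53 to 1.95, limma adjusted p = 0.853). Without Boxer lymphoma 1 the difference was 0.83 and passed (limma adjusted p = 0.0321). In other-breed lymphomas, where all 3 libraries exceeded the controls (24.7% of genes did), the difference was 0.92 ± 0.29 (95% interval 0.24 to 1.60, limma adjusted p = 0.0496). That call lay at the threshold and was lost in 5 of the 6 fits that left out a library, with limma adjusted p from 0.0375 to 0.144 over the 6. In Boxers the difference was -0.51 ± 0.90 (limma adjusted p = 0.680), and 0.69 without Boxer lymphoma 1 (limma adjusted p = 0.0594).

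The balance between both receptor genes can be read within each library, free of the scaling factor, as the share of IGF1R among the reads of IGF1R and INSR. The share includes gene length and is therefore no measure of which receptor is more abundant. It was 33.8% in Boxer lymphoma 1 (23 of 68 reads, exact binomial 95% interval 22.8 to 46.3), 10.2% in Boxer lymphoma 2 (7.61 to 13.3) and 11.6% in Boxer lymphoma 3 (9.18 to 14.5). In other-breed lymphomas it was 2.17% (0.999 to 4.09), 2.56% (1.71 to 3.68) and 11.1% (8.38 to 14.4). In the controls it was 33.5% (28 to 39.3), 31.0% (27.1 to 35.1) and 29.5% (25.5 to 33.8). Thus 5 of 6 lymphomas had a smaller share than any control, with intervals that did not meet those of the controls. The share of Boxer lymphoma 1 was close to the controls, with an interval that spanned theirs, and both IGF1R and INSR were low there. Intervals cover counting error only, and no test between groups was made on these shares.

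**Figure D2:**
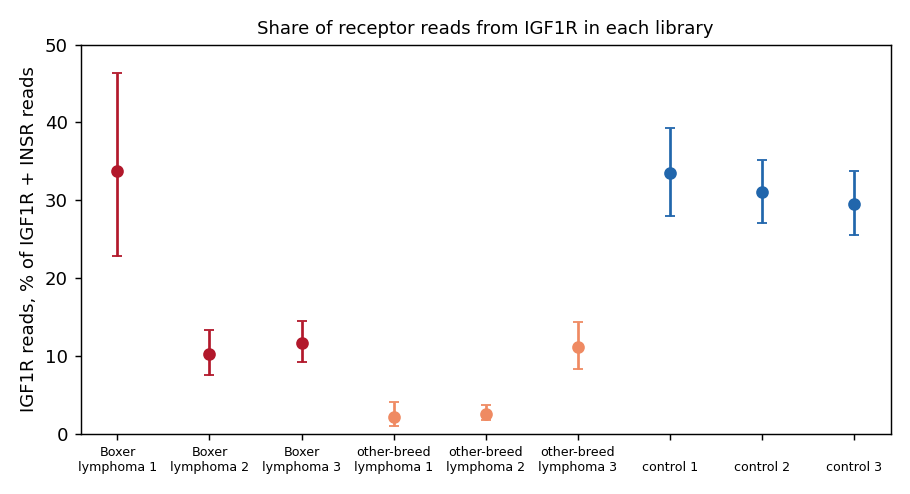
Share of IGF1R among the reads of IGF1R and INSR in each library, in percent, with exact binomial 95% intervals as bars. The controls lie at 29.5 to 33.5%, Boxer lymphoma 1 at 33.8%, and the other 5 lymphomas at 2.17 to 11.6%.

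The adaptor gene IRS1 (ENSCAFG00000010397) had 2.55, 15.2 and 4.16 normalised counts in Boxer lymphomas and 0, 0.789 and 20.2 in other-breed lymphomas, against 0 in all 3 controls. Reads were thus seen in 5 of 6 lymphomas, with 16 reads in Boxer lymphoma 2 and 19 in other-breed lymphoma 3. The gene reached a value of 10 in 2 libraries and was not tested. The 43 reads pooled over the lymphomas were set against a floor of 3 reads over the control group. This gave a bound of 6.93-fold, which allows for counting error in the controls only and takes the lymphoma reads as exact. Without other-breed lymphoma 3 the bound was 4.56-fold. With no filter on low values the difference was 2.24 ± 0.92 in the 6 lymphomas (limma adjusted p = 0.106). It was 2.74 ± 0.71 in Boxers (limma adjusted p = 0.0224) and 1.75 ± 1.07 in other-breed lymphomas (limma adjusted p = 0.317). IRS1 entered these fits only through the lymphomas, and its controls, all at 0, had no spread. Of the 2 lymphomas with the most IRS1 reads, Boxer lymphoma 2 also had the highest IGF1 value, 227. The other, other-breed lymphoma 3, had an IGF1 value of 60.5.

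The adaptor gene IRS2 (ENSCAFG00000006058) had 838, 1169 and 364 normalised counts in Boxer lymphomas and 786, 2307 and 727 in other-breed lymphomas, against 700.2, 870.2 and 727 in the controls. Other-breed lymphoma 2 and Boxer lymphoma 2 were above every control, Boxer lymphoma 3 was below every control, and the remaining 3 lymphomas lay among the controls. The mean was 1032 ± 676 in the lymphomas and 766 ± 91.4 in the controls (SD, n = 6 and 3). The difference of 0.21 ± 0.45 did not pass the test (95% interval -0.78 to 1.20, limma adjusted p = 0.734), nor did that in Boxers (-0.10 ± 0.40, limma adjusted p = 0.854) or other-breed lymphomas (0.52 ± 0.43, limma adjusted p = 0.383). These intervals leave room for changes of more than 1 log2 unit. Of the reads of both IRS genes, IRS1 held at most 2.70%, in other-breed lymphoma 3.

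**Figure D3:**
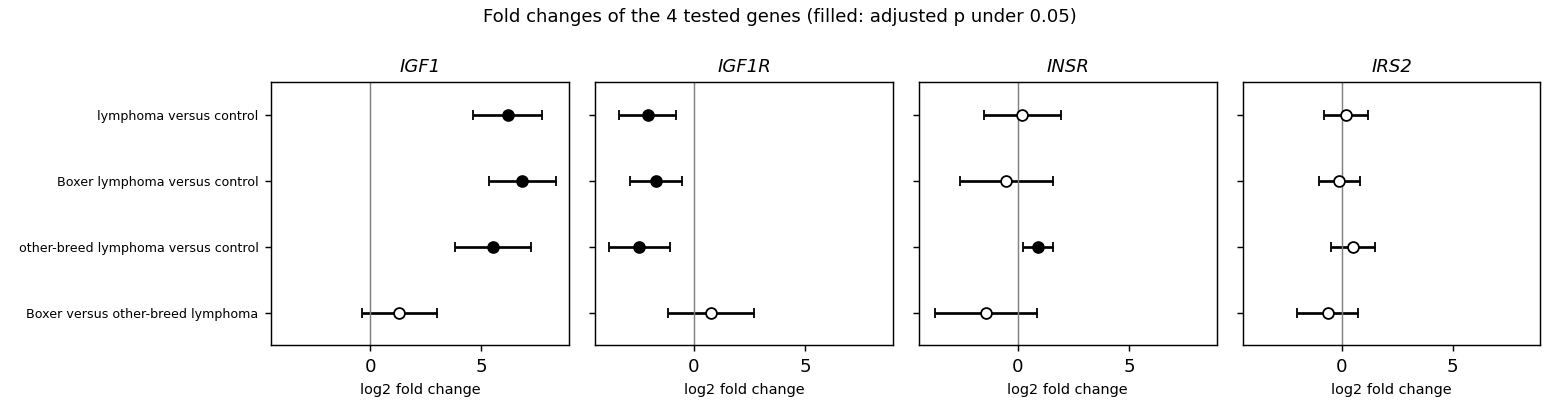
Differences of IGF1, IGF1R, INSR and IRS2 on the log2(normalised count + 1) scale in each of the 4 comparisons, with 95% confidence intervals as bars. The intervals of IGF1 and IGF1R exclude 0 in the 3 comparisons with controls, and all intervals of the Boxer against other-breed comparison include 0.

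Boxer and other-breed lymphomas were set against each other to ask whether the axis differs by breed group. By mean level, IGF1 was highest in Boxer lymphomas (157 ± 82.1), then other-breed lymphomas (64.7 ± 41.7), then controls (0.275 ± 0.477), and the lymphoma groups overlapped. The difference of Boxer minus other-breed was 1.32 ± 0.71 (95% interval -0.37 to 3.00, limma adjusted p = 0.881). IGF1R averaged 46.0 ± 26.7 in Boxer and 28.6 ± 22.0 in other-breed lymphomas (SD, n = 3 each), a difference of 0.76 ± 0.81 (95% interval -1.16 to 2.69, limma adjusted p = 0.909). INSR averaged 331 ± 265 in Boxer and 580.01 ± 227 in other-breed lymphomas (SD, n = 3 each), a difference of -1.43 ± 0.97 (95% interval -3.71 to 0.86, limma adjusted p = 0.881). IRS2 averaged 790.3 ± 404 in Boxer and 1274 ± 896 in other-breed lymphomas (SD, n = 3 each), a difference of -0.63 ± 0.58 (95% interval -2.0 to 0.74, limma adjusted p = 0.898). None of the 4 genes passed, and 0% of 15112 genes did. At an unadjusted p of 0.05 limma had 753 of the 15112 genes, where chance alone passes a share of 0.05. After adjustment edgeR called 0, and DESeq2 called 44 higher and 58 lower. The intervals of these 4 genes include 0 and also differences of more than 1 log2 unit in at least 1 direction.

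The genes whose levels ran most like each member were listed by Pearson's r of log2(value + 1), out of 9382 genes with a symbol and a mean of at least 50. Over the 9 libraries, IGF1 was closest to CDCA3 (r = 0.997), DLGAP5 (0.996) and MCM6 (0.994), the first a cell cycle gene, the second a spindle gene and the last a DNA replication gene. For IGF1, 705 genes had an r of at least 0.9, a count that includes the step between lymphomas and controls. Over the 6 lymphomas alone its closest genes were SSRP1, a histone chaperone gene (0.999), PRC1, a spindle midzone gene (0.996), and KIF11, a mitotic kinesin gene (0.992), and 149 genes reached 0.9. IGF1R was closest to KCNIP2 (0.983), DUSP2 (0.962) and SKI (0.960) over the 9 libraries, and KCNIP2 was again among its 3 closest over the 6 lymphomas (0.980), with SMAGP (0.990) and IRF8 (0.976). INSR was closest to EDARADD (0.959), WBP1 (0.956) and SAC3D1 (0.946) over the 9 libraries and to AZI2, UBE3C and CIAO1 (0.993, 0.993 and 0.992) over the lymphomas. IRS2 had few close genes over the 9 libraries, of which PPP2R1A (0.926), MRPS23 (0.90) and PTOV1 (0.898) came first. Over the lymphomas its closest were RFNG (0.985), PTOV1 (0.978) and PHF12 (0.973). With 6 or 9 libraries that share groups and scaling, these values are descriptions.

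The genes around the members were read from lists by role. Of the 15 other ligand, binding protein and cofactor genes, 9 were tested in the lymphomas against controls, and 5 rose and none fell (55.6% called), against 35% of all genes called, 19.4% upward and 15.7% downward. Their median difference was 3.53, or 3.56 with the 2 genes at 0 in all controls set at their bound, against 0.05 over all genes tested. Of the 9, 4 had no control at 10 or more, so they entered the test only through the lymphomas. IGFBP4, which binds IGFs and limits their access to the receptor, had 4424, 3920 and 2555 normalised counts in Boxer lymphomas and 844, 1709.7 and 2048 in other-breed lymphomas, against 115, 135 and 158 in the controls. Every lymphoma was above every control, as for 18.5% of all genes tested, and the difference of 4.05 ± 0.45 passed (limma adjusted p = 1.91e-04). IDE, which encodes an enzyme that degrades insulin, rose by 0.75 ± 0.15 (limma adjusted p = 0.00429). IGFALS, whose product stabilises circulating IGF complexes, rose by 3.56 ± 0.90 (limma adjusted p = 0.0125). The IGFALS call was lost without control 1 (limma adjusted p = 0.0525).

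The second IGF ligand gene, IGF2, had 8.5, 11.4 and 34.4 normalised counts in Boxer lymphomas and 2.35, 0.789 and 93.4 in other-breed lymphomas, against 0 in all controls. On a floor of 3 reads over the controls, the bound for its pooled level in the lymphomas was 23.5-fold, with the lymphoma reads taken as exact. Other-breed lymphoma 3 held 88 of the 146 reads, and without it the bound was 11.0-fold. The call (limma adjusted p = 0.0376) was lost with a pseudocount of 5, with sex as a covariate, with age as a covariate (0.16, limma adjusted p = 0.944) and in 4 of the 6 fits without a library in which it was tested. INS and IGFBP1 had no reads in any library. IGFBP7 had 524, 1209 and 2234 normalised counts in Boxer lymphomas and 47.1, 7.89 and 5467 in other-breed lymphomas, against 42.3, 30.5 and 28.7 in the controls. Other-breed lymphoma 3 was thus the highest library and other-breed lymphoma 2 the lowest. IGFBP3 had 19.5, 29.4 and 147 in Boxer lymphomas and 0, 0 and 322 in other-breed lymphomas, against 0 in all controls. In Boxers against controls all 8 tested genes of the list rose, where 21.5% of all genes did, IGFBP7 by 5.03 ± 0.51 (limma adjusted p = 4.84e-04), with 3 of the 8 entering only through the Boxers. The fibroblast sum was 14858 and the endothelial sum 7745 in other-breed lymphoma 3, where IGF2, IGFBP3 and IGFBP7 were highest, and 621 and 164 in other-breed lymphoma 2, and their part in these values was not tested.

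**Figure D4:**
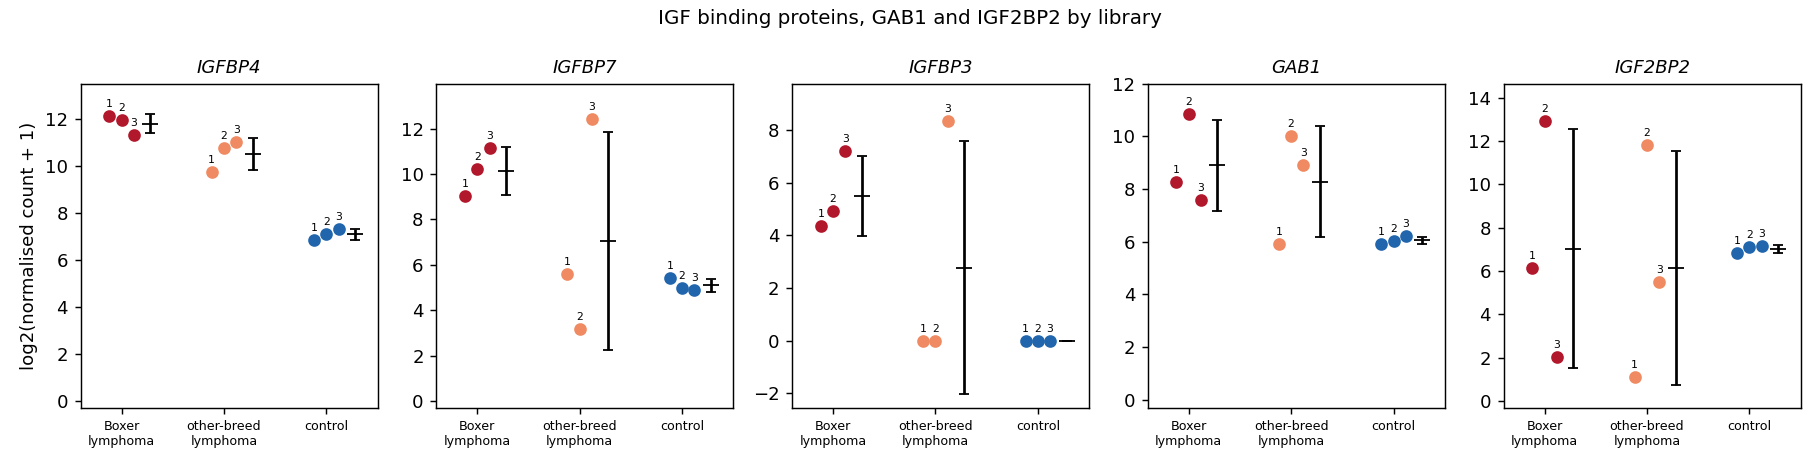
Normalised read counts of IGFBP4, IGFBP7, IGFBP3, GAB1 and IGF2BP2 in each library, on the log2(normalised count + 1) scale. Points are libraries numbered by replicate, and the bars beside them are the mean and SD of the group on that scale (n = 3 each). IGFBP4 separates the lymphomas from the controls, while IGF2BP2 is above the controls in Boxer lymphoma 2 and other-breed lymphoma 2 and below them in the other 4 lymphomas.

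Among receptor-proximal adaptors and brakes, 25 of 27 listed genes were tested, 4 rose, 5 fell, and the median was -0.26. The share called, 36%, was close to the 35% of all genes tested. GRB10, an adaptor known to inhibit the insulin and IGF1 receptors, had 528, 1327 and 699 normalised counts in Boxer lymphomas and 313, 1146 and 717 in other-breed lymphomas, against 66.9, 128 and 134 in the controls. All lymphomas were above all controls, which held for 18.5% of all genes tested, with a difference of 2.74 ± 0.43 (limma adjusted p = 0.00128). SOCS3, a feedback inhibitor of cytokine and insulin signalling, had 29.7, 44.6 and 7.29 in Boxer lymphomas and 9.42, 3.15 and 61.6 in other-breed lymphomas, against 182, 264 and 245 in the controls. It fell in the lymphomas by 3.68 ± 0.83 (limma adjusted p = 0.00738). SOS1, an exchange factor that activates RAS, fell by 1.39 ± 0.29 (limma adjusted p = 0.00517), and MDM2, an E3 ligase gene known to act on IGF1R, fell by 0.62 ± 0.14 (limma adjusted p = 0.00855). The adaptor gene SH2B2 rose by 2.42 ± 0.70 (limma adjusted p = 0.0232), a call lost without any 1 control and with sex as a covariate. The docking protein gene GAB1 was called at 2.53 ± 0.88 (limma adjusted p = 0.0459) but ran unevenly. It had 309, 1839 and 192 normalised counts in Boxer lymphomas and 60.0, 1025 and 478 in other-breed lymphomas, against 60.1, 64.4 and 73.2 in the controls, and 7 of 9 fits without a library lost the call.

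Downstream of the adaptors, the PI3K, AKT and mTOR list had 25 genes tested, of which 1 rose and 6 fell, with a median of -0.29. The share called was 28%, against 35% of all genes tested. FOXO1, a transcription factor gene whose product AKT holds out of the nucleus, fell by 1.5 ± 0.20 (limma adjusted p = 5.61e-04), and FOXO3 fell by 1.29 ± 0.32 (limma adjusted p = 0.0109). PIK3R1, which encodes the regulatory PI3K subunit that IRS proteins bind, fell by 1.16 ± 0.22 (limma adjusted p = 0.00304). Of the 14 genes tested of the RAS and MAPK list, none rose and 3 fell, among them BRAF by 1.10 ± 0.20 and ARAF by 0.49 ± 0.17 (limma adjusted p = 0.00245 and 0.0499), while the list's median was positive at 0.30. That share of 21.4% called was below the 35% of all genes, and the ARAF call was lost in 7 of 12 other settings and 7 of 9 fits without a library. In Boxers 5 genes of that list rose and 3 fell, against 21.5% and 17.9% of all genes tested there. Those that rose included the signalling inhibitor genes SPRED1 at 3.09 ± 0.74 and SPRY1 at 1.53 ± 0.38 (limma adjusted p = 0.0135 and 0.0153). SPRED1 entered this test only through the Boxers, and its call was lost in 1 fit of 3 groups (limma adjusted p = 0.0660). The SPRY1 call was lost without control 2 and without control 3.

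The list of the mannose 6-phosphate route, which IGF2R serves, had 20 genes tested, of which 10 rose and 4 fell, with a median of 0.85. The share called was 70%, against 35% of all genes (19.4% upward and 15.7% downward). GGA2, a trafficking adaptor gene, rose by 3.09 ± 0.49 (limma adjusted p = 0.00123), whereas its relatives GGA1 and GGA3 fell by 0.79 ± 0.21 and 0.60 ± 0.15 (limma adjusted p = 0.0173 and 0.0113). SORT1, a sorting receptor gene, had 1977, 1343 and 283 normalised counts in Boxer lymphomas and 473, 927 and 368 in other-breed lymphomas, against 65.5, 61.1 and 69.5 in the controls. It rose by 3.41 ± 0.57 (limma adjusted p = 0.00164). The lysosomal protease gene CTSD rose by 1.92 ± 0.28 (limma adjusted p = 8.27e-04) and the lysosomal enzyme gene GUSB by 0.89 ± 0.17 (limma adjusted p = 0.00367), while GAA, another lysosomal enzyme gene, fell by 1.54 ± 0.54 (limma adjusted p = 0.0494), a call lost in 5 of 12 other settings and 7 of 9 fits without a library. M6PR, the smaller mannose 6-phosphate receptor gene, was called higher in the 6 lymphomas. In other-breed lymphomas it rose by 0.79 ± 0.15 (limma adjusted p = 0.00873). That call was lost in 1 fit of 3 groups (limma adjusted p = 0.109) and without control 2. In Boxers it was not called, though its pooled ratio to the controls was 1.94, against 1.74 in other-breed lymphomas. Macrophages are rich in lysosomal enzymes, and the macrophage sum was higher in every lymphoma than in every control; its part in this list was not tested. With age as a covariate, IGFBP4, IDE, SOCS3, FOXO1, CTSD, GGA2, SORT1 and GUSB still passed in the 6 lymphomas, while IGFALS, IGF2, GRB10, SH2B2, GAB1, SOS1, MDM2, FOXO3, PIK3R1, BRAF, ARAF, GGA1, GGA3 and GAA did not. Of these the SH2B2 difference was 0.64 (limma adjusted p = 0.657) and that of GAB1 1.09 (limma adjusted p = 0.614). Controls and lymphomas do not overlap in age.

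**Figure D5:**
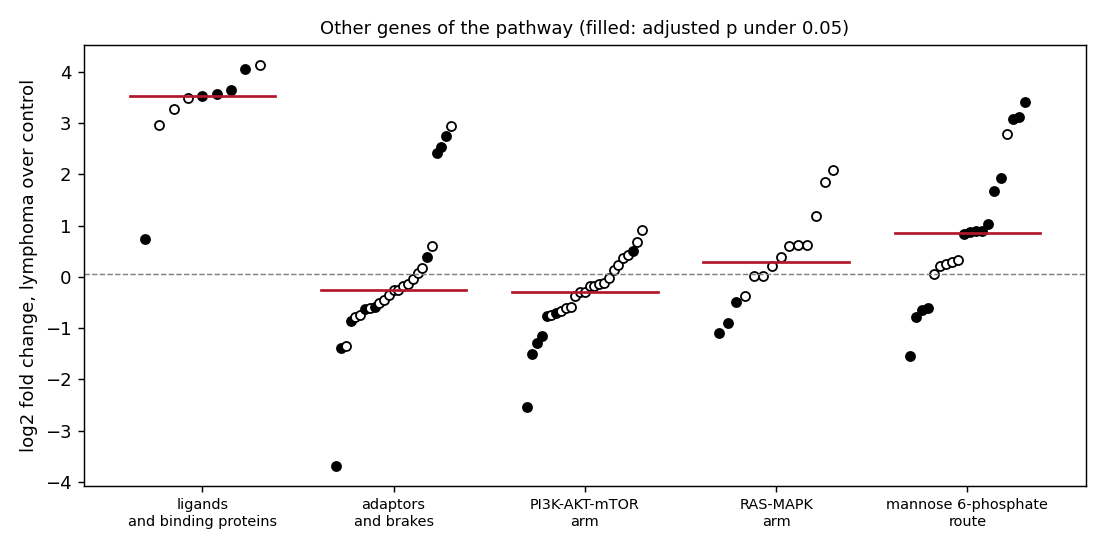
Differences between the 6 lymphomas and the 3 controls on the log2(normalised count + 1) scale for the tested genes of each list, 1 point per gene, filled where the limma adjusted p is under 0.05, with red lines at the list medians and a dashed line at the median of all genes tested (0.05). The 9 ligand and binding protein genes lie above 0 (median 3.53), those of the mannose 6-phosphate route have a median of 0.85, and those of the adaptor and PI3K lists have medians of -0.26 and -0.29.

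Set against the same 3 controls, IGFBP4 differed by 4.70 ± 0.25 in Boxer lymphomas and 3.40 ± 0.35 in other-breed lymphomas (limma adjusted p = 1.00e-04 and 0.00136). GRB10 differed by 2.90 ± 0.42 in Boxer lymphomas and 2.59 ± 0.51 in other-breed lymphomas (limma adjusted p = 0.00178 and 0.0107). SOCS3 differed by -3.33 ± 0.64 in Boxer lymphomas and -4.03 ± 0.93 in other-breed lymphomas (limma adjusted p = 0.00563 and 0.0183). The SOCS3 call in other-breed lymphomas was lost with edgeR and without any 1 control (adjusted p up to 0.0733). In other-breed lymphomas fewer ligand and binding protein genes could be tested, 4 genes, of which 2 rose and 0 fell. Of all genes tested there, 15.5% rose and 14.2% fell. In Boxer against other-breed lymphomas no gene of these lists passed. IGF2BP2, an RNA-binding protein gene named for its binding of IGF2 messenger RNA, was singled out after its values were seen. It had 69.7, 7784 and 3.12 normalised counts in Boxer lymphomas and 1.18, 3609 and 43.5 in other-breed lymphomas, against 112, 135 and 143 in the controls. Only Boxer lymphoma 2 and other-breed lymphoma 2 exceeded the controls, the other 4 lymphomas lay below all of them, and the difference of -0.44 ± 2.40 did not pass (limma adjusted p = 0.901). The same 2 lymphomas had the highest GAB1 values.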

How the data were processed

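Polyadenylated RNA of 9 libraries was sequenced. The submitters' processing notes name TopHat2, HTSeq, DESeq2 and the build CanFam3.1; versions and the strand setting are not given in the sources used here. Each deposited signal value is a read count divided by 1 factor per library. All values (100% in each library) were whole multiples of 1 read within 0.01 reads, so reads were recovered, and recomputed median-of-ratios factors were the same. The deposited tables give no coordinates or lengths, so none are given and levels are not compared between genes.

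Genes at 10 or higher in 3 or more libraries of a fit were tested with limma 3.58.1 (R 4.3.3) on log2(value + 1) with a mean-variance trend, which understates changes of low genes. Only the groups compared entered a fit. Values are mean ± SD and differences ± SE. Genes named are the members and, per list, direction and comparison, up to 4 called genes with the smallest p, of which some are not reported here. IGFBP3, IGFBP7, INS and IGFBP1 are also given with values in the main comparison whatever their result, chosen after values were seen, like IGF2BP2. The members and lists were chosen with earlier results of these data known. Alternatives were TMM and total-count scaling, other filters, pseudocounts of 0.5 and 5, edgeR 4.0.16, DESeq2 1.42.0, 1 fit of 3 groups, sex or age as a covariate, a replicate block, each library left out and, added after seeing the data, leaving out other-breed lymphomas 1 and 2, or each lymphoma from the pooled ratios. The pipeline was tested on simulated data.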

Additional observations from a re-analysis of the deposited data

Results flagged for a closer look

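Boxer lymphoma 1 stood apart from the other 5 lymphomas in both measures of the insulin receptor. Its INSR value of 38.2 normalised counts, against 401 to 839.9 in the others, left a gap of 0.759 of the log2 range of the 6 lymphomas, above the critical value of 0.625. Its IGF1R share of the receptor reads, 33.8% against 2.17 to 11.6% in the others, left a gap of 0.701 of the range. Both measures use the same INSR reads, 45 in that library. Of 7 measures looked at in the 6 lymphomas these were the 2 above the critical value, and chance alone flags about 1 group in 20.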

How the results depend on the processing

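IGF1 kept its rise against controls in all 9 fits of the lymphomas without 1 library and under the 12 other settings (4.15 with a pseudocount of 5 to 8.24 with DESeq2). For the 6 lymphomas IGF1R stayed negative in the same settings (-3.40 with age as a covariate to -1.60 without other-breed lymphomas 1 and 2). For the 6 lymphomas INSR turned to -0.24 and IRS2 to -0.095 without other-breed lymphomas 1 and 2, and to -0.054 and -0.067 without other-breed lymphoma 2. Without 1 library INSR ran to 0.83 at most and IRS2 to 0.47. In Boxers INSR turned to 0.17 with edgeR, 0.18 with DESeq2 and 0.69 without Boxer lymphoma 1, and IRS2 to 0.047 with edgeR, 0.050 with DESeq2 and 0.38 without Boxer lymphoma 3, the lowest values without 1 library being -1.22 and -0.46. In other-breed lymphomas IRS2 was -0.012 without other-breed lymphoma 2 and 0.82 at most without 1 library. The cause of these changes was not tested.

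With age as a covariate, 1048 genes were higher and 885 lower in the lymphomas. With no filter, 2 members rose in Boxers, IRS1 being the second, which entered that fit only through the Boxers. In 1 fit of 3 groups 0 members fell in Boxers (IGF1R limma adjusted p = 0.0740). In other-breed lymphomas 1 member rose, not 2, under TMM, total-count scaling, no filter, a pseudocount of 0.5, 1 fit of 3 groups and a replicate block, where INSR missed the threshold (limma adjusted p from 0.0501 to 0.440), and under a filter of at least 50, where IGF1 was not tested. Between the lymphoma groups DESeq2 called 44 genes higher and 58 lower, a pseudocount of 5 gave 2 lower and 1 fit of 3 groups 2 higher.

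Without 1 library, 1866 to 3291 genes rose and 1194 to 2605 fell in the lymphomas, with 1 to 2 members up and 0 to 1 down. In Boxers 2108 to 2570 genes rose and 1238 to 2821 fell, with 0 to 1 members up and 0 to 1 down. In other-breed lymphomas 1007 to 2155 rose and 617 to 2464 fell, with 0 to 1 members up and 0 to 1 down. Between the lymphoma groups 0 to 1 genes were called in each direction. IGF1 was not tested in the fits of Boxers or other-breed lymphomas against controls that left out a lymphoma, for want of 3 libraries at 10. Of the 28 named list genes of the first comparison, 8 kept their call under every setting.

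The replicate numbers did not pair the samples: same-numbered libraries of different groups had correlations of -0.136 to 0.104 in their deviations from the group means, and 1 of 9 libraries correlated best with its own number. With a replicate block 2752 genes were higher and 2158 lower in the lymphomas. Low read counts limit IRS1 and the control level of IGF1, which rest on at most 19 reads in any lymphoma and on 1 read in all controls.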
